A study of Mus musculus with 8 samples.

Results

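The E2F family of transcription factors was followed in leukaemic spleen cells sorted by surface c-kit (CD117). Its members were found by gene symbol: every probe set of the array whose platform annotation named E2f1, E2f2, E2f3, E2f4, E2f5, E2f6, E2f7 or E2f8 as its only gene was taken, which gave 16 probe sets for 8 genes, of 45101 probe sets in all. The rule names genes and uses no measured value, but the family was picked with earlier results of these data known. The samples came from 4 mice with an acute myeloid leukaemia that MLL-AF10 drives, the fusion of MLL, a histone methyltransferase gene, with AF10. Bone marrow stem and progenitor cells positive for c-kit had been immortalised by retroviral transduction and injected into sub-lethally irradiated syngeneic recipients, whose strain the labels spell CD57BL/6. Leukaemic spleen cells of each mouse were sorted into a c-kit-high fraction, labelled CD117pos, and a fraction with low or no c-kit, labelled CD117neg, and each fraction gave 1 array. All 8 arrays therefore carry MLL-AF10 leukaemia, with no array of healthy cells among them. The sources used here do not say if each leukaemia came from its own transduction, so p-values may measure only the spread between recipients of the same cells. Host spleen cells were not stated to be removed. The mice are called by the ends of the array titles, _948, _951, _952 and _953.

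E2F proteins bind DNA at the promoters of genes needed for the step from G1 into S phase. E2F1, E2F2 and E2F3 are the activating members, which pair with a DP protein and are held in check by the retinoblastoma protein. E2F4 and E2F5 mostly act as repressors together with the related pocket proteins p107 and p130, E2F6 represses without binding pocket proteins as part of a polycomb complex, and the atypical members E2F7 and E2F8 bind DNA without a DP partner and repress. Cyclin-dependent kinases phosphorylate the pocket proteins and so free the activating E2Fs, and several E2f genes are themselves E2F targets. In the blood system of the mouse, loss of both E2f1 and E2f2 is known to disturb the cycling and maturation of progenitors, and E2f2 is abundant in maturing erythroblasts.

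Values are deposited intensities on a linear scale, 1 per probe set and array. Intensities of different probe sets are not compared, because probes differ in how brightly they report 1 transcript. Differences are CD117pos minus CD117neg of log2(intensity + 16), given with the standard error (SE) of a limma fit over all 45037 probe sets other than controls, with the mouse as a block. Adjustment of p-values (Benjamini-Hochberg) ran over all of these probe sets, and the threshold was 0.05. Kit, the sorted marker, averaged 751 ± 127 in CD117pos arrays and 28.6 ± 9.73 in CD117neg arrays (SD, n = 4 each). Array medians lay between 27.5 and 31.1 in the CD117pos arrays and between 31.0 and 32.8 in the CD117neg arrays. The CD117pos array of mouse _951 stood apart: its correlation with the other CD117pos arrays was 0.928 to 0.930, against 0.985 to 0.987 among those. Of the 6 listed markers of myeloid progenitors and primary granules, 4 passed the test as higher in CD117pos cells and 0 as lower. Among the 4 is Kit itself, whose difference the sort fixed, and the others are the granule protein genes Mpo, Elane and Ctsg. The progenitor surface marker Cd34 was lower in CD117pos cells in 4 of 4 mice, by a log2 difference of -0.85 ± 0.26 that did not pass (limma, adjusted p = 0.0798). Of the 6 monocyte and 7 neutrophil markers measured, 5 and 6 passed as lower and 0 as higher. With bulk fractions, fewer cells of a type and less RNA per cell cannot be told apart.

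E2f2 fell in CD117pos cells to between 0.113 and 0.144 of its CD117neg intensity, while E2f1, E2f3 and E2f6 rose moderately, and E2f4, E2f5, E2f7 and E2f8 did not pass the test. Of the 16 probe sets, 4 passed as higher and 2 as lower. Over all probe sets 5.6% passed as higher and 10.9% as lower. By class, the 7 probe sets of the activating members gave 2 rises and 2 falls, the 6 of the repressing members 2 rises and 0 falls, and the 3 of the atypical members none in either direction, with log2 differences between -0.05 and 0.44. With 1 probe set per gene, that of the highest mean, 3 of the 8 genes rose and 1 fell, against 7.53% and 12.9% of all 18193 genes, or 20.5% in either direction (16.5% of all probe sets). The median log2 difference over these 8 probe sets was 0.54, and over all genes -0.01. The share of higher among all calls depended on the scaling between arrays: it was 34.0% as deposited, 51.4% after quantile normalisation and 45.1% after centring on array medians, and the E2f probe sets gave 8 rises and 2 falls after quantile normalisation and 7 and 2 after centring. Intensities of the fractions did not overlap for 6 probe sets that were higher and 2 that were lower in CD117pos cells, against 8.08% and 15% of all probe sets. The probe sets differed in brightness. Of the 16, 11 exceeded the array median on all 8 arrays, and 1427462_at of E2f3 and 1444319_at of E2f8 exceeded it on none. Of all 45037 probe sets, 17944 had a mean intensity of at least 64. In a fit of only these, 2686 rose and 4661 fell, and of the 10 E2f probe sets among them 7 rose and 2 fell.

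**Figure D1:**
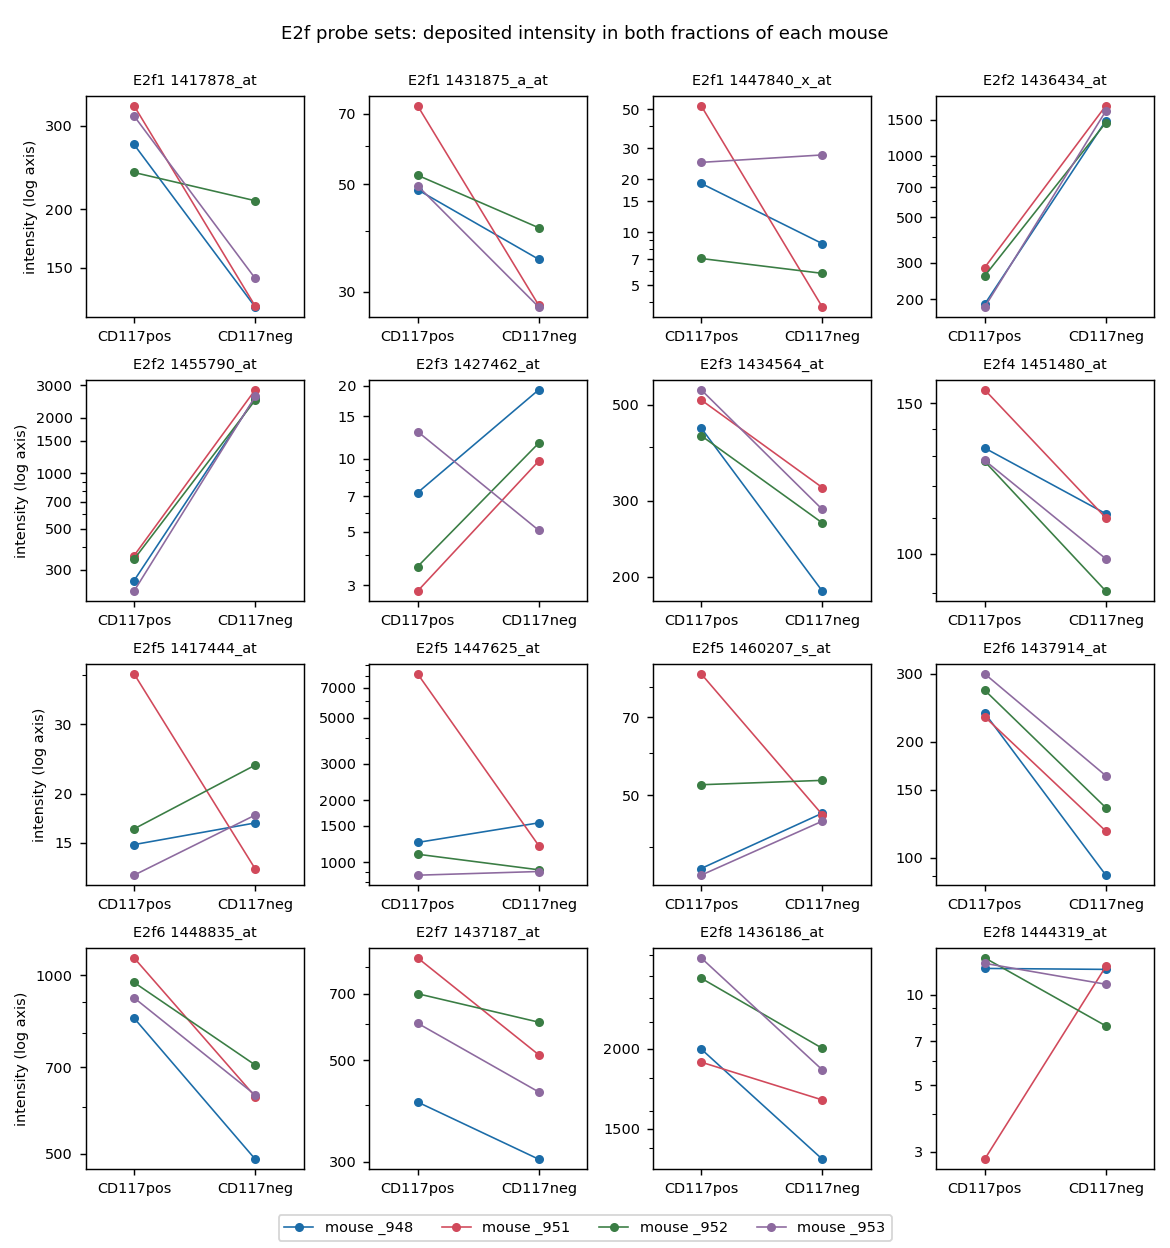
Deposited intensity (log axis, a separate range in each panel) of the 16 E2f probe sets, with CD117pos on the left and CD117neg on the right of each panel and a line joining the fractions of each of 4 mice. Both E2f2 panels run from 183 to 357 in CD117pos arrays up to 1450 to 2842 in CD117neg arrays, while E2f1 1417878_at, E2f3 1434564_at and both E2f6 panels slope the other way.

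Among the activating members, E2f2 differed most. Its probe set 1455790_at (Entrez gene 242705) read 262, 357, 342 and 230 in the CD117pos arrays of mice _948, _951, _952 and _953, against 2575, 2842, 2498 and 2613 in their CD117neg arrays. The fractions were far apart, with every CD117pos value below every CD117neg value, and the CD117neg values lay close together. Means were 298 ± 61.7 in CD117pos and 2632 ± 148 in CD117neg arrays (SD, n = 4 each), a ratio of 0.113, and the log2 difference was -3.10 ± 0.15 (limma, adjusted p = 0.000382). The second E2f2 probe set, 1436434_at, read 189, 285, 259 and 183 in the same order of mice in CD117pos arrays, against 1483, 1753, 1450 and 1654 in CD117neg arrays. Its log2 difference was -2.73 ± 0.15 (limma, adjusted p = 0.00061), so that separate probe sets of the gene gave nearly the same fall. By size of the difference, E2f2 held place 198 among 18193 genes counted from the largest fall. Leaving out any mouse kept both probe sets past the threshold, with differences of -3.19 to -2.99 for 1455790_at and -2.83 to -2.61 for 1436434_at.

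Because E2f2 is abundant in maturing erythroblasts, erythroid markers were read beside it. Of 10 listed erythroid markers 8 were measured, and none passed the test in either direction. Their summed intensity was 115 to 292 in CD117pos arrays and 144 to 175 in CD117neg arrays, and Hba-a1, Klf1, Slc4a1 and Rhag, which encode alpha-globin, an erythroid transcription factor, the anion exchanger band 3 and a Rhesus-associated glycoprotein, lay below the array median on all 8 arrays. Markers of mature monocytes and neutrophils moved with E2f2: summed over 6 monocyte markers, intensity was 2018 to 7035 in CD117pos arrays and 22564 to 27894 in CD117neg arrays, and summed over 7 neutrophil markers it was 13532 to 30957 in CD117pos and 51117 to 56091 in CD117neg arrays. No T cell, B cell or megakaryocyte marker passed the test in either direction (4, 5 and 4 measured). The B cell markers nevertheless leaned lower, with sums of 139 to 715 in CD117pos and 631 to 1224 in CD117neg arrays. Sums of the T cell markers were 50.2 to 554 and 95.8 to 136, and of the megakaryocyte markers 81.3 to 133 and 79.8 to 126, in the same order. None of the monocyte or neutrophil markers lay below the median on all arrays, and their part in the E2f2 difference was not tested.

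E2f1 rose. Its brightest probe set, 1417878_at (Entrez gene 13555), read 274, 331, 239 and 315 in CD117pos arrays of mice _948, _951, _952 and _953, against 124, 124, 208 and 142 in CD117neg arrays. The fractions did not overlap, but mouse _952 gave a far smaller step than the others, with a log2 difference of 0.19 against 1.05 to 1.31. Over all mice the difference was 0.90 ± 0.21 (limma, adjusted p = 0.0348). This call was lost without mouse _948 (difference 0.85, adjusted p = 0.148 by limma), without mouse _951 (0.77, adjusted p = 0.0561) and without mouse _953 (0.85, adjusted p = 0.143). The 2 dimmer E2f1 probe sets did not pass: 1431875_a_at, higher in 4 of 4 mice, differed by 0.55 ± 0.16 (limma, adjusted p = 0.0711), and 1447840_x_at, which exceeded the array median on 1 array, by 0.57 ± 0.32 (limma, adjusted p = 0.305).

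E2f3 also rose, by its probe set 1434564_at (Entrez gene 13557). It read 442, 513, 424 and 542 in CD117pos arrays and 185, 321, 266 and 286 in CD117neg arrays of mice _948, _951, _952 and _953. Every CD117pos value exceeded every CD117neg value. The log2 difference was 0.84 ± 0.14 (limma, adjusted p = 0.0139), with single mice between 0.64 and 1.19. The call was lost without mouse _948 (0.73, adjusted p = 0.0692 by limma), without _952 (0.91, adjusted p = 0.0553) and without _953 (0.83, adjusted p = 0.074). The other E2f3 probe set, 1427462_at, read between 2.84 and 13.0 in CD117pos arrays and between 5.07 and 19.3 in CD117neg arrays, below the array median throughout, and differed by -0.27 ± 0.21 (limma, adjusted p = 0.452).

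The activating members did not share a direction. Within each mouse, the log2 difference of E2f2 minus that of E2f1 was -4.27 in _948, -4.24 in _951, -3.00 in _952 and -4.48 in _953, a mean of -4.00 ± 0.68 (SD, n = 4). That of E2f2 minus that of E2f3 was -4.41, -3.59, -3.45 and -4.30 in the same order, a mean of -3.94 ± 0.49. Both lay below 0 in 4 of 4 mice, with a two-sided exact sign-flip p of 0.125 each, which is the smallest that 4 mice allow. In all, 4 such pairs of genes were compared, and none can pass the threshold in this design.

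**Figure D2:**
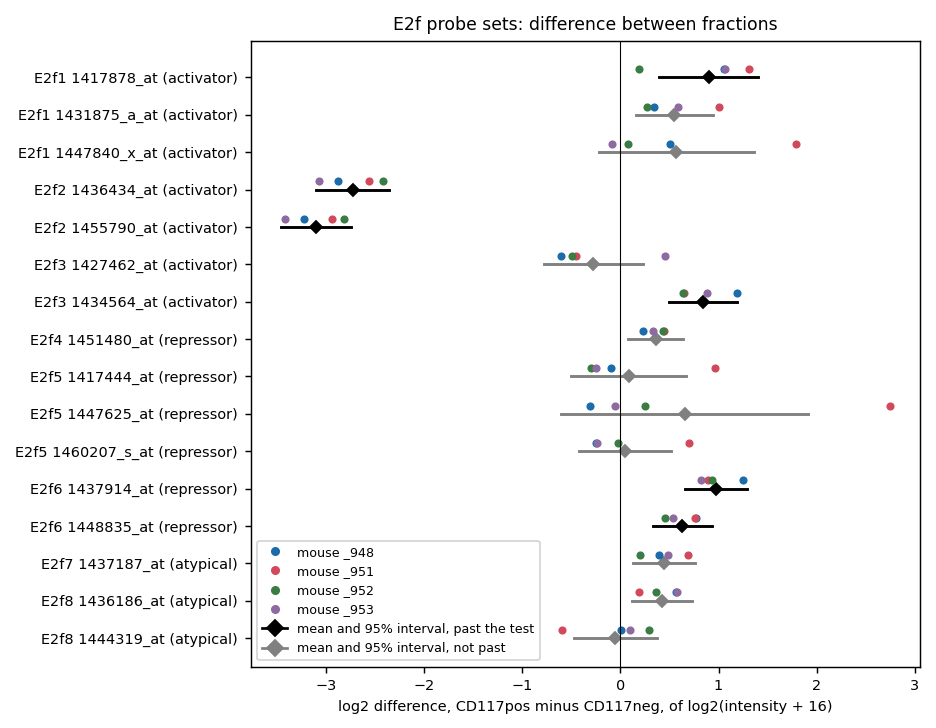
Log2 difference between fractions (CD117pos minus CD117neg) for the 16 E2f probe sets, with the mean and 95% interval of the limma fit as diamonds and bars, black where the adjusted p was under 0.05, and the 4 mice as coloured points. The E2f2 intervals lie between -3.45 and -2.36, well away from the other members, and the 3 E2f5 probe sets each have mouse _951 far to the right of the other mice.

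The 5′ sequences of E2f2 and E2f3 are shown because these activating members moved in opposite directions and both hold a match to the E2F consensus near the annotated start. Of the E2f genes, 6 had a promoter window in the RefSeq table (GRCm38.p6), covering 250 bases before to 50 after a start, with 8 windows in all. They were searched on both strands for the 4 forms of the consensus, TTTCGCGC, TTTGGCGC, TTTCCCGC and TTTGCCGC, which do not overlap each other in these windows. E2f2 (chr4:136172024-136172323, plus strand) held TTTGGCGC at bases 290 to 297 of its window, and E2f3 (chr13:29986014-29986313, minus strand) held TTTCCCGC on the opposite strand at bases 240 to 247. Both windows are printed 5′ to 3′ on the gene's strand, with the match in capitals.
E2f2: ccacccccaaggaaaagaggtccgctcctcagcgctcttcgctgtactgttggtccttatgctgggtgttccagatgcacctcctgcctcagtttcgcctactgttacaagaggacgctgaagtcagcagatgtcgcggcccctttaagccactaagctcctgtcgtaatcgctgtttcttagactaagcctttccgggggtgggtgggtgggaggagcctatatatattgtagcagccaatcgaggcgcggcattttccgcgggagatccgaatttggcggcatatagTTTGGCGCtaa
E2f3: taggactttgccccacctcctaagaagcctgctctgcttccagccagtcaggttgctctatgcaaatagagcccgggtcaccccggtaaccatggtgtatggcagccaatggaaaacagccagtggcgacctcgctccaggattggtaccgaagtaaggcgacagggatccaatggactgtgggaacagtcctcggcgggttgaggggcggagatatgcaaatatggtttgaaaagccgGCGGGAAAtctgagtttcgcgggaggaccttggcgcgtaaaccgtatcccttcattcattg
The further windows of E2f2 and E2f3, which lie downstream within these genes, held no match, nor did those of E2f1, E2f6 and E2f8, while E2f7 held TTTCCCGC on the opposite strand. The E2f1 and E2f8 windows belong to starts 466 and 477 bases inside the annotated genes, so the regions before their first annotated starts were not searched. Among all 32851 windows of this length, 2.26% held at least 1 of the 4 forms. A match is a run of letters and was not tested for binding.

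Among the repressing members, E2f6 rose by both of its probe sets. The brighter, 1448835_at (Entrez gene 50496), read 847, 1070, 973 and 916 in CD117pos arrays of mice _948, _951, _952 and _953, against 490, 625, 706 and 629 in CD117neg arrays. Its fractions did not overlap, and its log2 difference was 0.63 ± 0.12 (limma, adjusted p = 0.0213). It was not past the threshold without mouse _948 (0.58, adjusted p = 0.109 by limma), without _952 (0.69, adjusted p = 0.0703) or without _953 (0.66, adjusted p = 0.0792). The second, 1437914_at, read 237, 232, 272 and 300 in CD117pos and 90.2, 117, 135 and 163 in CD117neg arrays. It differed by 0.98 ± 0.13 (limma, adjusted p = 0.00676), and this call held without any mouse, with adjusted p between 0.0076 and 0.0448.

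E2f4, the most widely expressed repressing member, had 1 probe set, 1451480_at (Entrez gene 104394). It read 133, 156, 128 and 129 in CD117pos arrays and 111, 110, 90.4 and 98.6 in CD117neg arrays of mice _948, _951, _952 and _953. The fractions did not overlap and 4 of 4 mice gave a positive difference, of 0.36 ± 0.11, which did not pass (limma, adjusted p = 0.0886). It passed with a pseudocount of 64 (adjusted p = 0.0329 by limma), after quantile normalisation (0.0352), after centring (0.0494) and without dim probe sets (0.0466).

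E2f5 turned on a single array. Its brightest probe set, 1447625_at (Entrez gene 13559), read 1247, 8162, 1094 and 866 in CD117pos arrays of mice _948, _951, _952 and _953, against 1551, 1203, 919 and 902 in CD117neg arrays. The value of 8162 in the CD117pos array of mouse _951 was 7.64 times the mean of the other CD117pos arrays, which overlapped the CD117neg arrays. The other probe sets also read highest on that array, 40.4 against 12.4 to 16.3 in the other CD117pos arrays for 1417444_at, and 84.6 against 35.3 to 52.3 for 1460207_s_at. Over all mice the 3 probe sets differed by 0.66 ± 0.51, 0.08 ± 0.24 and 0.05 ± 0.19 (limma, adjusted p between 0.471 and 0.905). Without mouse _951 the differences were -0.041, -0.21 and -0.17.

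Both atypical members leaned upward without passing. E2f7 (1437187_at, Entrez gene 52679) read 405, 839, 700 and 603 in CD117pos arrays and 304, 514, 606 and 426 in CD117neg arrays of mice _948, _951, _952 and _953. The fractions overlapped because the mice differed more from each other than the fractions did, yet within each mouse the CD117pos array was higher. The difference was 0.44 ± 0.13 (limma, adjusted p = 0.0719). E2f8 (1436186_at, Entrez gene 108961) read 1999, 1906, 2578 and 2774 in CD117pos and 1344, 1664, 2003 and 1854 in CD117neg arrays, a difference of 0.43 ± 0.13 (limma, adjusted p = 0.0748), again positive in 4 of 4 mice. The intervals of these differences, 0.13 to 0.76 and 0.12 to 0.73 on the log2 scale, do not reach the size of the E2f2 difference. E2f8 passed without mouse _951 (0.50, adjusted p = 0.0393 by limma), and both passed after quantile normalisation (adjusted p = 0.0294 for E2f7 and 0.0205 for E2f8). Both also passed with a pseudocount of 64 (0.0382 and 0.0326) and without dim probe sets (0.0406 and 0.0417). E2f7 passed after centring (0.0426) and E2f8 with an intensity trend (0.0352). In all, E2f7 passed under 4 and E2f8 under 5 of 14 alternatives. Without the block, adjusted p was 0.318 for E2f7 and 0.142 for E2f8 by limma. The dim E2f8 probe set 1444319_at read 2.83 to 13.3 in CD117pos arrays and 7.87 to 12.4 in CD117neg arrays. Between classes, the log2 difference of E2f1 exceeded that of E2f6 by 0.27 ± 0.38 and that of E2f8 by 0.48 ± 0.53 (SD, n = 4), in 3 of 4 mice each, with a two-sided exact sign-flip p of 0.25. Neither difference exceeded the spread between mice.

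Genes that act with the E2f factors were read from lists of binding partners, G1 regulators, G1/S targets and subunits of the E2F6 complex, each gene by its brightest probe set. Of the 12 binding partners, 3 rose and 1 fell, where 7.53% of all genes rose and 12.9% fell, and their median log2 difference was 0.16. Mybl2, which encodes B-Myb, the factor that joins the MuvB complex to switch on later cell cycle genes, read 368, 268, 325 and 396 in CD117pos arrays and 79.9, 99.4, 120 and 90.3 in CD117neg arrays of mice _948, _951, _952 and _953. The fractions were well separated, and the difference was 1.65 ± 0.17 (limma, adjusted p = 0.00369). Lin9, a MuvB subunit, rose by 0.67 ± 0.15, and Rbl1, encoding the pocket protein p107, by 0.55 ± 0.14 with overlapping fractions (limma, adjusted p = 0.0305 and 0.0487). Rb1, encoding the retinoblastoma protein itself, fell: it read 725, 460, 1118 and 833 in CD117pos arrays and 1308, 1374, 1602 and 1462 in CD117neg arrays. Its difference was -0.92 ± 0.19 (limma, adjusted p = 0.0252). The third pocket protein gene, Rbl2, differed by -0.18 ± 0.18 and the DP partner gene Tfdp1 by 0.30 ± 0.13, neither past the threshold. Of these 4 calls, only that of Mybl2 held without each mouse in turn. Lin9 and Rb1 had 2 probe sets each, of which only 1 was called, and Rbl1 had 4, of which 2 were called. No gene of the lists had probe sets called in opposite directions.

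Of the 16 G1 regulators, 2 rose and 5 fell, beside the same 7.53% and 12.9% of all genes, with a median of 0.00. The 5 that fell were 4 genes of cyclin-dependent kinase inhibitors and the cyclin gene Ccnd3. Cdkn1a, encoding p21, read 223, 94.8, 262 and 362 in CD117pos arrays and 609, 607, 755 and 862 in CD117neg arrays of mice _948, _951, _952 and _953. Its difference was -1.64 ± 0.23 (limma, adjusted p = 0.00833), with no overlap between fractions. Cdkn2b, encoding p15, read between 11.2 and 14.0 in CD117pos arrays, under their medians, and between 50.8 and 85.6 in CD117neg arrays. It differed by -1.52 ± 0.16 (limma, adjusted p = 0.0034), a size that depends on the pseudocount. Cdkn2d, encoding p19, differed by -1.26 ± 0.17, Ccnd3 by -0.82 ± 0.18 and Cdkn1b, encoding p27, by -0.71 ± 0.16 (limma, adjusted p between 0.00771 and 0.0313). The genes that rose were Cdk4, the kinase partner of D cyclins, by 0.90 ± 0.14, and Skp2, which directs p27 to degradation, by 0.95 ± 0.16 (limma, adjusted p = 0.0102 and 0.0135). Cdk2, Cdk6, Ccne2 and Cdkn2c differed by 0.26, 0.21, 0.27 and -0.19 and did not pass by their brightest probe sets. Another of the 3 Cdk6 probe sets passed as higher. Cdkn1a and Cdkn1b had 2 probe sets each, of which only 1 passed as lower. Of these 7 calls, those of Cdkn1a and Cdkn2b held without each mouse in turn.

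Genes commonly bound by E2F at the G1/S step leaned upward. Of 52 listed, 48 were measured under a single symbol, and 17 of them rose and 0 fell, with a median log2 difference of 0.55. Against this, 7.53% of all genes rose. In the main fit all 48 differences were positive, where 51.2% of all genes lay below 0. They are means over the mice, and some targets were lower in the CD117pos array of mouse _951. Of the 48, 31 did not pass in the main fit, though other probe sets of some of these genes did. Tk1, the thymidine kinase gene, and Ung, encoding uracil-DNA glycosylase, both rose by 1.21 (SE 0.18 and 0.20, limma, adjusted p = 0.0103 and 0.0128). The replication factor C subunit genes Rfc3 and Rfc4 rose by 1.13 ± 0.23 and 1.10 ± 0.15, and Prim1, the small primase subunit gene, by 0.99 ± 0.17 (limma, adjusted p = 0.0244, 0.00692 and 0.0162). Of 2 Rfc3 probe sets, only 1 was called. Mouse by mouse, the median over the target list was 0.91 in _948, 0.15 in _951, 0.55 in _952 and 0.64 in _953. Mouse _951, whose E2f1 difference was the highest of the 4 mice, had the lowest median of its target list. Both values rest on the CD117pos array that stood apart from the others, and a link between E2f1 and the targets was not tested. Without mouse _951, 31 targets rose, and without mice _948, _952 and _953 in turn 1, 6 and 1 did, where Rfc4 was called in each case. Of 41 listed targets with a promoter window, 19 held a form of the consensus, 46.3%, against 2.61% of all genes with a window. The share was also above that of all genes in the other lists, at 3 of 9 binding partners, 2 of 12 G1 regulators and 1 of 9 E2F6 complex genes with a window. The target list was written from textbook E2F-bound genes, so a high share was built into it and the contrast tests nothing. The 27025 genes behind the 2.61% were not matched to the lists in any way.

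**Figure D3:**
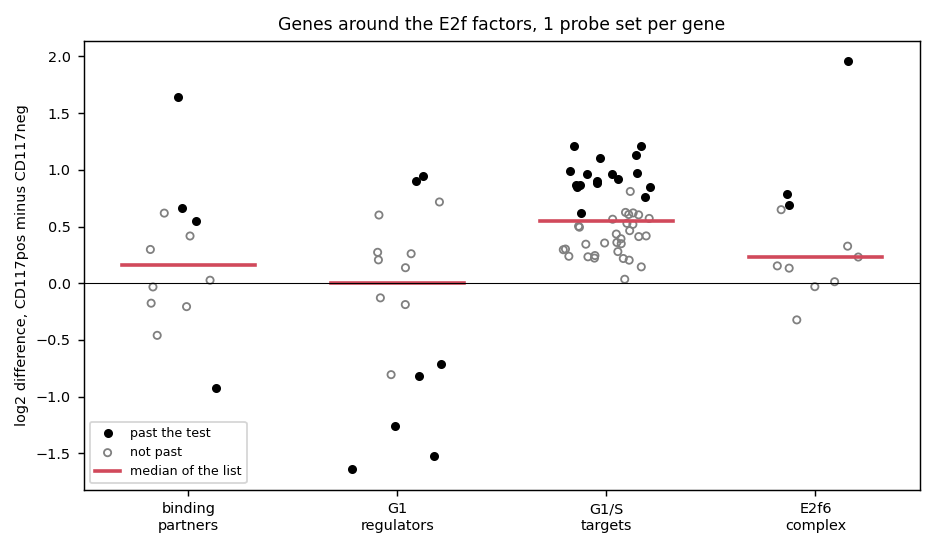
Log2 difference between fractions (CD117pos minus CD117neg) for the genes of 4 lists, 1 point per gene, filled where the adjusted p was under 0.05, with the list's median as a red bar. All 48 G1/S targets lie above 0 with a median of 0.55, while the G1 regulators spread to both sides of 0, with Cdkn1a, Cdkn2b and Cdkn2d lowest.

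Of the 11 measured subunits of the polycomb complex that holds E2F6, 3 rose and 0 fell, beside 7.53% and 12.9% of all genes, with a median of 0.23. L3mbtl2, a chromatin-binding subunit, rose by 0.79 ± 0.14 and the deacetylase gene Hdac2 by 0.69 ± 0.14 (limma, adjusted p = 0.0162 and 0.0232). Max, a partner shared with the Myc network, read 348, 1232, 178 and 202 in CD117pos arrays and 121, 62.3, 71.4 and 74.0 in CD117neg arrays of mice _948, _951, _952 and _953. Its fractions did not overlap, though mouse _951 was again far above the others, and the difference was 1.96 ± 0.50 (limma, adjusted p = 0.0477). Pcgf6, Mga, Rnf2 and Wdr5 differed by 0.15, 0.13, -0.03 and 0.23 and did not pass, though the other of 2 Wdr5 probe sets passed as higher. The 3 calls held without mouse _951, and none of them held without mouse _948, _952 or _953.

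A high reading on the CD117pos array of mouse _951 was also seen for single probe sets of the binding partner Tfdp2 and the G1 regulator Ccne1. The brightest probe set annotated to Tfdp2, the gene of the second DP partner, was 1435344_at. It read 684, 4283, 545 and 535 in CD117pos arrays and 824, 652, 583 and 483 in CD117neg arrays of mice _948, _951, _952 and _953. For Ccne1, the cyclin E1 gene, the brightest was 1441910_x_at, a shared-sequence probe set by its suffix. It read 726, 4281, 528 and 559 in CD117pos arrays and 732, 625, 517 and 519 in CD117neg arrays. On the CD117pos array of mouse _951 these values were 7.28 and 7.08 times the mean of the other CD117pos arrays. Other probe sets of the same genes did not show this, and whether the high readings are of Tfdp2 and Ccne1 transcripts was not tested. For Tfdp2, 1437174_at read 219 on that array and 178 to 235 on the other CD117pos arrays, against 87.2 to 145 on CD117neg arrays, and passed as higher with a difference of 0.71 (limma, adjusted p = 0.0427). For Ccne1, 1416492_at read 63.9 there and 105 to 119 on the other CD117pos arrays. In all, 4.76% of 17944 probe sets with a mean intensity of at least 64 had that array standing apart as the highest of the CD117pos arrays and 6.28% as the lowest, by Dixon's test at 95%. The other CD117pos arrays stood apart in this way in 0.128% to 0.502% of these probe sets in either direction.

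**Figure D4:**
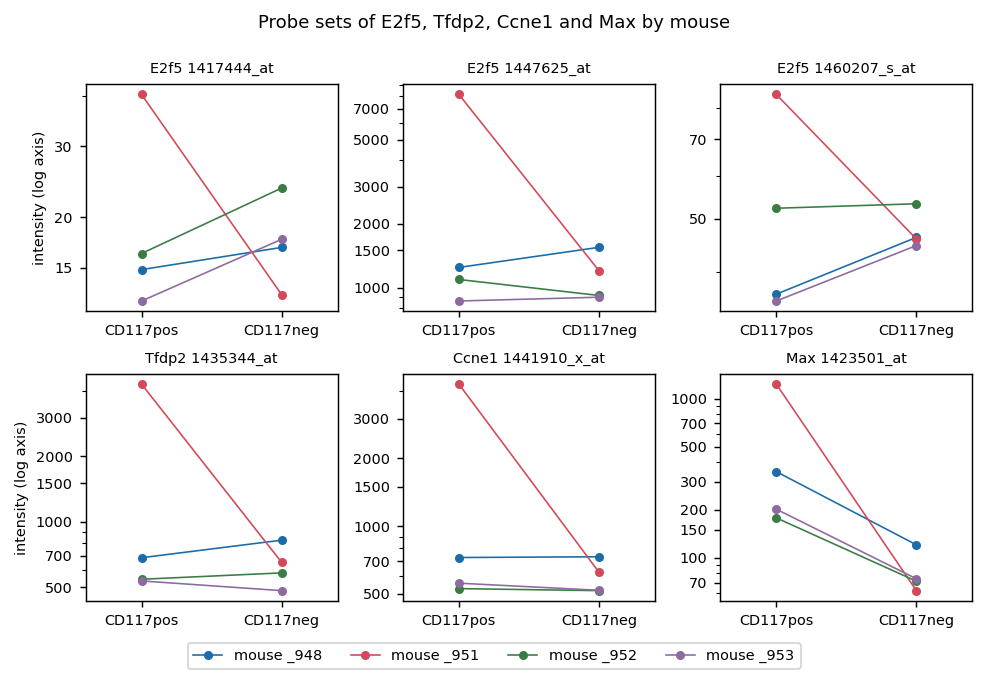
Deposited intensity (log axis, a separate range in each panel) of the 3 E2f5 probe sets and of the brightest probe sets of Tfdp2, Ccne1 and Max, CD117pos left and CD117neg right, a line per mouse. In every panel the CD117pos array of mouse _951 (red) is the highest point, at 8162 for 1447625_at and 1232 for Max.

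Among 9407 other genes with a mean intensity of at least 64, those with the profile most like each called E2f gene were found by Pearson correlation of log2 values over the 8 arrays. The arrays share the split into fractions, so these values describe and do not test. For E2f2 they were Mvp, the major vault protein gene, the kinase gene Sgk1 and the collagenase gene Mmp8, with r between 0.995 and 0.996. Mvp averaged 96.5 in CD117pos and 351 in CD117neg arrays, and Sgk1 averaged 88.7 in CD117pos and 1124 in CD117neg arrays. For E2f1 they were Grpel2, Dtd2 and Trim27 (r of 0.980 to 0.985), for E2f3 Rbm25, Prom1 and Dkc1 (0.983 to 0.993), and for E2f6 Cacybp, Fancm and Efcab7 (0.993 to 0.994). Prom1, encoding the progenitor surface protein CD133, averaged 2265 in CD117pos and 1189 in CD117neg arrays.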

How the data were processed

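RNA of both sorted fractions of 4 mice was measured on 1-colour Affymetrix arrays. Per the labels' protocols, polyA RNA went through 2-cycle amplification with biotin labelling. The deposited values are an intensity on a linear scale per probe set. The sources used here do not say how the authors summarised probes or scaled arrays, and no further scaling was applied. On each array 841 to 898 values equalled 1. Precision is limited by the number of arrays. Detection calls were not analysed here.

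Gene names came from the platform annotation. Of 45037 probe sets other than the 64 controls, 34945 had 1 gene symbol, 932 several and 9160 none. All 16 E2f probe sets matched the mouse gene table by gene ID. Intensities were transformed as log2(intensity + 16), a scale that understates changes of dim probe sets. A limma fit (version 3.58.1, R 4.3.3) with fraction and mouse as terms gave two-sided moderated tests over all 45037 probe sets, adjusted by Benjamini-Hochberg. The fit was tested on simulated data with known changes. Mouse is a block because, per the series' design text, the spleen cells of each mouse were split into both fractions, and the array titles carry its number. Deviations from the fraction means correlated within mice by 0.12 to 0.27 across genes, against at most 0.11 between mice. Genes of lists were represented by the probe set with the highest mean. Plots were made in Python 3.11.15 (matplotlib 3.10.9).

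Named genes were every E2f gene, members of the lists of up to 16 genes, the 5 largest rises of the target list, Kit, and the 3 genes most like each called E2f gene. Other markers named (Cd34, Mpo, Elane, Ctsg and 4 erythroid genes) fall outside this rule and were picked with their values in view. The members and lists were chosen with earlier results of these data known. Alternatives covered the block, pseudocount, scaling, filters, intensity trend, 1 or the mean of probe sets per gene, shared-sequence probe sets, each mouse, and the CD117pos array of mouse _951.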

Additional observations from a re-analysis of the deposited data

Results flagged for a closer look

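Within a fraction of 4 arrays, single arrays stood apart from the other 3 by Dixon's test at 95% on the log2 scale in 8 of 110 groups tested. The test is set to flag about 1 in 20 groups by chance, but the share over all probe sets differed by array. The 8 are therefore not read as an excess. Of the 8, 5 were the CD117pos array of mouse _951, which over 17944 probe sets stood apart as the highest in 4.76% and as the lowest in 6.28%. It was the highest for E2f5 1447625_at (8162, against 866 to 1247 in the other CD117pos arrays), Tfdp2 (4283, against 535 to 684), Ccne1 (4281, against 528 to 726) and E2f1 1431875_a_at (72.8, against 48.8 to 52.2), and the lowest for the dim E2f8 1444319_at (2.83, against 12.2 to 13.3). The CD117neg array of mouse _948 was the lowest for Lin54, a MuvB subunit gene (298, against 540 to 592), and for Foxm1, encoding a G2/M transcription factor (72.4, against 98.8 to 104). Its CD117pos array was the lowest for Ccnd1, the cyclin D1 gene (31.6, against 37.7 to 38.5).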

How the results depend on the processing

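Both E2f2 falls kept their call under all 14 alternatives for 1455790_at and all 13 that held 1436434_at, and so did 1437914_at of E2f6 under its 13. With a pseudocount of 1, 1 E2f probe set rose, 1134 of all probe sets rose and 2930 fell, 1 binding partner rose and 0 fell, 3 G1 regulators fell, 7 targets rose and 0 E2F6 complex genes rose. After quantile normalisation, 8 E2f probe sets, 3945 of all probe sets and 30 targets rose, and 3 G1 regulators fell. With a pseudocount of 64, after centring and without dim probe sets, 7 E2f probe sets rose. With 1 probe set per gene, 1 E2f probe set fell, and 1504 of all rose and 2511 fell. With the mean of probe sets, 1 binding partner rose. Without the replicate block, 5 E2f probe sets rose and 2 fell, so the pairing changed 1 E2f call, that of 1431875_a_at of E2f1 (adjusted p = 0.0317 by limma). With neither the block nor mouse _951's CD117pos array, 3900 of all probe sets and 30 targets rose, and the differences of E2f5 turned to -0.077 (1447625_at), -0.14 (1417444_at) and -0.16 (1460207_s_at), and that of E2f8 1444319_at to 0.10, which was 0.044 after centring. Leaving out each mouse in turn gave 1 to 4 rises and 2 falls among E2f probe sets, 456 to 3575 rises and 1894 to 5571 falls over all, 1 to 4 rises and 0 to 1 falls of binding partners, 0 to 3 rises and 2 to 5 falls of G1 regulators, 1 to 31 rises of targets and 0 to 3 of E2F6 complex genes. These fits ranged from -0.041 to 0.98 for E2f5 1447625_at, -0.21 to 0.21 for 1417444_at, -0.17 to 0.15 for 1460207_s_at and -0.16 to 0.13 for E2f8 1444319_at. The gene pairs kept their direction. The cause of these shifts was not tested, except that fits without a mouse have fewer arrays. Signal near background limits the dim probe sets.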
